A study of Mus musculus with 8 samples.

Results

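Hemoglobin RNA was read as the 4 adult globin genes of the mouse, Hba-a1, Hba-a2, Hbb-bs and Hbb-bt, 4 of 31053 genes in the deposited tables. The genes were picked with earlier results of these data known, and all deposited cell barcodes were searched for them, each library on its own. The RNA came from the dentate gyri of male Nestin-GFP+/− mice aged 8 weeks, taken from the injured side at day 15 from animals with a controlled cortical impact (TBI) or with a sham craniotomy without impact (Control). All animals carried the same GFP transgene, which the nestin promoter drives in neural stem cells and in part of the vessel cells, and the sort discarded debris and doublets by scatter and dead cells by propidium iodide and collected the GFP-positive rest. Red cells are not among the cells that this gate aims at. The labels list 4 animals per group, and the study's methods give other numbers. The animals of a group were pooled before the sort, so each condition is 1 library, cells could not be returned to animals, and no test between conditions was possible. The condition of each table was read from barcodes that the study lists by condition: all 356 listed for Control were in 1 table, all 320 listed for TBI in the other, and none was crossed.

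Hemoglobin carries oxygen and is built from pairs of alpha and beta globin chains, each holding a heme group. Its RNA is made in red cell precursors of the bone marrow and spleen. It persists in reticulocytes, the young red cells that have lost their nucleus but not yet their RNA, and little is left in older red cells. In dissociated tissue it can therefore be read in a droplet with a red cell, in a droplet with a red cell and another cell, as free RNA in any droplet, or as RNA made by the cell itself.

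Gene positions are those of the mouse genome GRCm38. Hba-a1 (ENSMUSG00000069919, chr11:32283511-32284465, plus strand) and Hba-a2 (ENSMUSG00000069917, chr11:32296489-32297298, plus strand) encode alpha globin and lie 12023 bases apart. Hbb-bs (ENSMUSG00000052305, chr7:103826534-103828096, minus strand) and Hbb-bt (ENSMUSG00000073940, chr7:103812524-103813996, minus strand) encode adult beta globin and lie 12537 bases apart. Each of the 4 genes has 3 exons in its first annotated transcript.

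The copies within each pair are nearly the same, which bears on how reads can be split between them. The coding sequences of Hba-a1 and Hba-a2 differ at 1 of 429 bases (C381T, the Hba-a1 base first, counted from the A of the start codon). Those of Hbb-bs and Hbb-bt differ at 1 of 444 bases (C417T, the Hbb-bs base first). The stretches around these bases are shown with the differing base in capitals, because a read of a coding sequence can be given to 1 copy only if it covers this base.
Hba-a1: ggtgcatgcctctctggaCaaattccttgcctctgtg
Hba-a2: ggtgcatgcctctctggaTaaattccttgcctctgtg
Hbb-bs: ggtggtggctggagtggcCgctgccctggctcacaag
Hbb-bt: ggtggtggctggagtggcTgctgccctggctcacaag

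In the last 300 bases of the annotated transcripts, where a 3′ kit places most reads, 56.7% of the windows of 91 bases of Hba-a1 also occurred in a transcript of Hba-a2, and 49.1% of those of Hba-a2 in Hba-a1. For the beta pair the shares were 24.3% for Hbb-bs and 23.8% for Hbb-bt, because their ends after the stop codon differ more. Reads that fit both copies are dropped in counting, so more alpha than beta reads could be lost. The ratio of alpha to beta UMIs (unique molecular identifiers, tags that mark each captured molecule) is therefore not a ratio of chains, and only its differences between barcodes are read here. The split of a pair is likewise uncertain in its absolute value.

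The promoters of the alpha pair were the same in the 117 bases compared, with a shift of 3 bases between the annotated starts, and those of the beta pair matched at 88 of 119 bases. The 120 bases before the RefSeq start are shown for 1 gene of each pair (GRCm38.p6), with matches on either strand to the CCAAT box, to the CACCC box and to a TATA-type box with the letters ATATAA in capitals.
Hba-a2, chr11:32296372-32296491, plus strand: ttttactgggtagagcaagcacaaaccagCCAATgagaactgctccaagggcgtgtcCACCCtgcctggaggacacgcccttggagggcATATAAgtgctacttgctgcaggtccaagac
Hbb-bs, chr7:103827929-103828048, minus strand: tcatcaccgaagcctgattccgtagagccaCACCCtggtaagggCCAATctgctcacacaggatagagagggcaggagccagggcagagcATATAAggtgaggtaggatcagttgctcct

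All 4 members held all 3 letter strings in this window, in an order that differed between the pairs: CCAAT lay before CACCC in the alpha genes and after it in the beta genes. Of 32851 RefSeq promoters, 21.3% held CCAAT, 31.7% CACCC and 4.47% ATATAA in the same window, and 0.286% held all 3. GATAA, a longer form of the GATA core that GATA factors bind, was in 10.5% of these windows and in none of the 4 members. The core GATA itself was not searched for, and the Hbb-bs stretch above holds it as GATAG.

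The Control library held 24723113 UMIs in 3086 barcodes and the TBI library 31543330 UMIs in 5081 barcodes. Of these, 3049 Control and 5036 TBI barcodes passed a filter on genes and UMIs and were clustered with all globin genes left out, and 3 barcodes occurred in both libraries, 1 of them with a single hemoglobin UMI in Control. Clusters were named from marker genes as oligodendrocytes (1689 cells), neuron-like (1605), astrocyte-like (1363), mural (889), endothelial (834), neural stem cells (NSC, 639), microglia (127), radial glia-like (RG-like, 95) and oligodendrocyte precursors (OPC, 84), and 760 cells stayed unnamed. Intervals are 95% intervals, exact Poisson for UMI sums, exact conditional for ratios and Clopper-Pearson for shares. They cover counting error only, and PCR, pooling and the spread between animals are not in them.

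Hemoglobin RNA was not spread across the brain cells. The Control library held 92781 hemoglobin UMIs in all, but 2922 of its 3086 barcodes had none. The TBI library held 7769, and 5037 of its 5081 barcodes had none. In Control 19 barcodes with 50 or more hemoglobin UMIs held 99.8% of them, and in TBI 4 barcodes held 99.2%. These 23 are called hemoglobin-rich here. The values between the classes were almost empty, since the lowest of the 23 held 571 UMIs and the highest of all others 21. Only 3 barcodes held between 5 and 49 UMIs, with 5 and 14 in endothelial cells of TBI and 21 in an astrocyte-like cell of Control. A further 144 Control and 38 TBI barcodes held 1 to 3. These classes were drawn after the values had been seen.

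**Figure D1:**
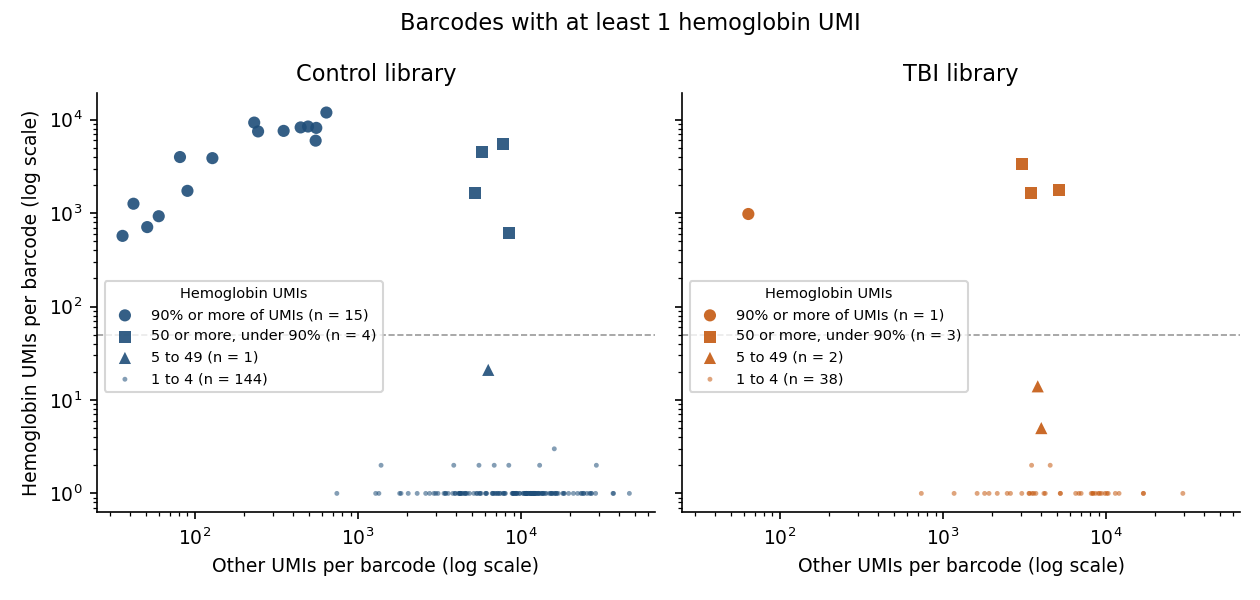
Each point is 1 barcode with at least 1 hemoglobin UMI, Control on the left and TBI on the right. The vertical axis gives its hemoglobin UMIs and the horizontal axis its UMIs of all other genes, both on log scales, and the dashed line marks 50 hemoglobin UMIs. The barcodes over the line fall into a left group with 36 to 640 other UMIs and a right group with 3043 to 8413, and nearly all others lie at 1 UMI.

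By gene, Hbb-bs led in both libraries. Control held 51532 UMIs of Hbb-bs, 18733 of Hba-a1, 13855 of Hba-a2 and 8661 of Hbb-bt. In TBI the same genes had 4744, 1574, 1011 and 440 UMIs. As shares of hemoglobin UMIs, Hba-a1 took 20.2% (19.9–20.4) in Control and 20.3% (19.4–21.2) in TBI, while Hba-a2 took 14.9% (14.7–15.2) and 13.0% (12.3–13.8). Hbb-bt took 9.34% (9.15–9.52) in Control and 5.66% (5.16–6.20) in TBI, and Hbb-bs made up the rest.

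The first class, called globin-dominated here, were 16 barcodes in which hemoglobin made up 90% or more of the UMIs, 15 in Control and 1 in TBI. The 15 Control barcodes held 571, 709, 927, 1261, 1732, 3880, 3986, 5970, 7495, 7594, 8177, 8273, 8458, 9319 and 11936 hemoglobin UMIs, and the TBI barcode held 979. They had little else. Between 34 and 309 genes were detected in the Control barcodes, and UMIs of all other genes numbered 36 to 640. Malat1, an abundant RNA of the nucleus, had 0 to 4 UMIs in each, against a median of 381 in the Control barcodes without hemoglobin. Mitochondrial RNA had 0 to 103 UMIs, with 103 in the barcode of 5970.

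The filter removed 13 of the 15 Control barcodes and the TBI barcode. Of the other barcodes it removed, 24 of Control and 43 of TBI had no hemoglobin UMI, and 1 of TBI had 1. The 2 that stayed, with 5970 and 11936 hemoglobin UMIs, fell in unnamed clusters. Both were called doublets by Scrublet, which was run with the globin genes in. In cluster 21, 156 cells with Camk2b among its leading genes, the 1 barcode set the level of the cluster, at 48479 hemoglobin counts per 1000000 UMIs (CPM, without Malat1), and the cluster had 4.28 CPM without it. Cluster 26, 113 cells with the vessel genes Tie1 and Abcb1a among its leading genes, had 46339 CPM with its barcode and 8.17 without.

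The RNA beside hemoglobin in the globin-dominated barcodes included genes known from late red cells. Of 4061 other UMIs in the 16 barcodes, Bpgm had 167 in 9 barcodes; it makes the phosphate compound that lowers the oxygen affinity of hemoglobin. Alas2, the first enzyme of heme synthesis in red cells, had 106 in 12 barcodes. Mkrn1 (119), Ube2l6 (47), Fam46c (35) and the mitochondrial iron carrier Slc25a37 (26) were also present. Ferritin light chain Ftl1 had 156 and ubiquitin B (Ubb) 139.

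Alas2 was nearly absent elsewhere. In the 8073 kept cells with fewer than 5 hemoglobin UMIs, it had 2 UMIs. Per 10000 other UMIs, Bpgm stood at 411 in the globin-dominated barcodes against 1.42 in those cells, and Mkrn1 at 293 against 1.53. Fth1, the ferritin heavy chain, stood closer, at 153 against 57.2. Since hemoglobin chose the barcodes, these are descriptions of them.

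The table of counts held 11 of the 12 genes listed for red cells, and 6 of them were detected. Alas2 had 130 UMIs in all, 106 in globin-dominated and 22 in globin-mixed barcodes. Klf1, a transcription factor of red cell precursors, had 43 UMIs in 42 barcodes, and none of these was a barcode with 50 or more hemoglobin UMIs. Slc4a1, the anion exchanger of the red cell membrane, had 2 UMIs, both in globin-dominated barcodes. Hemgn, Gata1, Rhag, Kel and Trim58 were at 0. Gata1 was at 0 in all barcodes, and a count of 0 in the 4061 other UMIs of the globin-dominated barcodes allows up to 9.08 per 10000 (exact Poisson), so the absence of Klf1 there was not detectable as a difference at this depth.

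Marker genes of brain cells were also read in the globin-dominated barcodes, and where this RNA came from was not tested. Mbp, myelin basic protein of oligodendrocytes, had 2 UMIs in 2 of 15 Control barcodes. Per 10000 non-globin UMIs its interval there was 0.606–18.08, which includes the 10.96 of Control cells under 5 hemoglobin UMIs. A lower level of Mbp was therefore not detectable at this depth. Oligodendrocyte markers as a list had 14 UMIs in 10 of the 16 barcodes. The NSC list had 12 UMIs in 6 of the 16, from 3 of its 10 genes. That was 29.6 per 10000 non-globin UMIs, against 15.6 in non-endothelial cells under 5 hemoglobin UMIs. Most genes of this list, such as Mki67, Top2a and Cdk1, belong to the cell cycle of any dividing cell, so these UMIs do not name stem cell RNA. Astrocyte-like markers had 3 UMIs in 3. Markers of neuron-like cells, mural cells, microglia, RG-like cells and OPCs were at 0 in all 16. Endothelial markers had 13 UMIs, but in 2 barcodes, and the barcode with 5970 hemoglobin UMIs held 5 of Cldn5 and 3 of Flt1.

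The second class, globin-mixed barcodes, were 7 with 50 or more hemoglobin UMIs beside a full set of other RNA. In Control they held 612 of 9025 UMIs (6.78%), 1659 of 6869 (24.2%), 4554 of 10288 (44.3%) and 5494 of 13217 (41.6%). In TBI they held 1640 of 5122 (32.0%), 1762 of 6879 (25.6%) and 3329 of 6372 (52.2%). The 2 libraries overlapped in these values. Between 1614 and 3177 genes were detected in them, and all 7 passed the filter.

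All 7 globin-mixed barcodes lay in endothelial clusters, the cells that line the vessels, although these clusters held 10.3% (9.66–11) of the kept cells. They fell in 3 clusters, 4, 8 and 19, which hold 336, 320 and 178 cells. The count was 7 of 7 without integration of the libraries, 6 of 7 with the globin genes left in the clustering and 6 of 7 with types from a marker score for each cell. In the last 2 the exception was the TBI barcode with 3329 hemoglobin UMIs. The share of endothelial cells that were globin-mixed was 1.52% (0.416–3.85) in Control and 0.525% (0.109–1.53) in TBI, and the intervals overlapped.

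Apart from hemoglobin the globin-mixed barcodes had endothelial markers at a rate close to that of other endothelial cells. The 6 endothelial markers summed to 213 per 10000 non-globin UMIs, with 177 to 280 in single barcodes, and to 208 in the 825 other endothelial cells under 5 hemoglobin UMIs. The non-globin UMIs of the globin-mixed barcodes ranged from 3043 to 8413, with a median of 5210, against a median of 3954 in the others. By library the medians were 6728.5 against 4674 in Control and 3482 against 3699 in TBI. The 4 Control barcodes each held 5210 or more, above the median of the other Control endothelial cells. Mural markers (8.01 and 6.68 per 10000) and oligodendrocyte markers (1.81 and 2.75) were low in both. Cldn5, the tight junction protein claudin-5, had 22 to 68 UMIs in each of the 7.

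**Figure D2:**
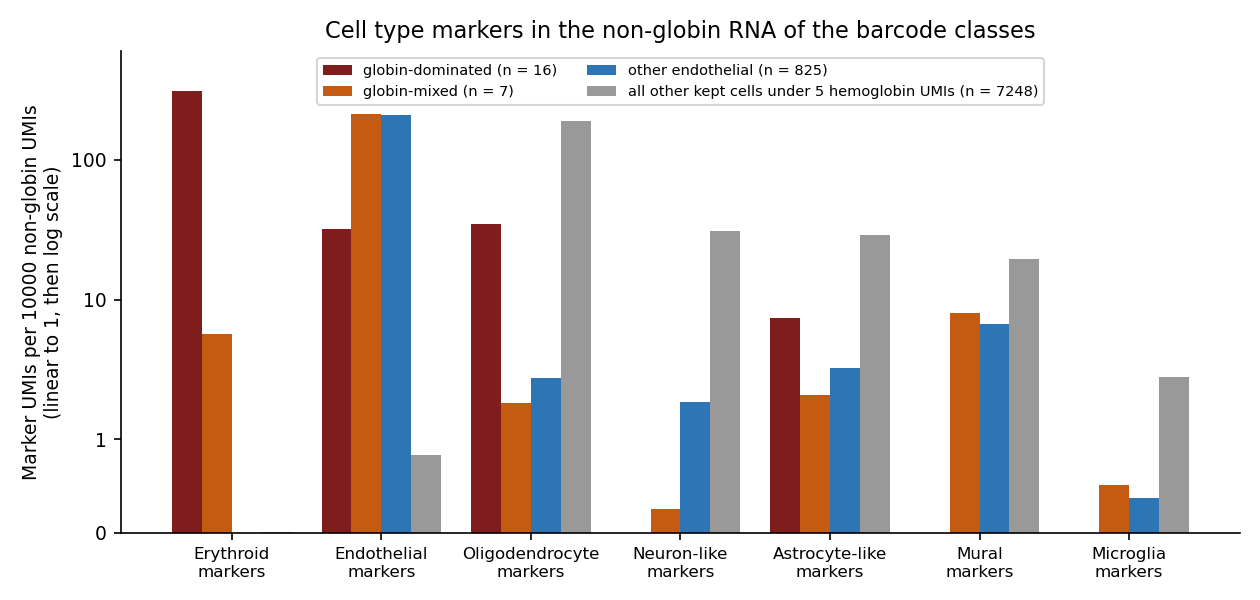
Bars give the UMIs of each marker list per 10000 non-globin UMIs, summed over both libraries, for the 16 globin-dominated barcodes, the 7 globin-mixed barcodes, 825 other endothelial cells and 7248 other cells. The scale is linear to 1 and logarithmic above. Red cell markers stood at 310 in globin-dominated barcodes, 5.68 in globin-mixed ones and under 0.01 in the others, and endothelial markers at 213 and 208 in globin-mixed and other endothelial cells.

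By Alas2, red cell RNA came with the hemoglobin in the 3 globin-mixed barcodes that held the most of it. Alas2 had 22 UMIs in 3 of the 7, namely 7 and 7 in the Control barcodes with 4554 and 5494 hemoglobin UMIs and 8 in the TBI barcode with 3329, and 0 in the 825 other endothelial cells. The globin-mixed barcodes with 612, 1640, 1659 and 1762 hemoglobin UMIs had 0 of Alas2 and at most 1 UMI of Alas2, Bpgm and Mkrn1 together. At the rate of globin-dominated barcodes, given next, a barcode of this size would hold few Alas2 UMIs. A 0 in a single one of them therefore does not show a lack of Alas2. Summed over each class, Alas2 stood at 11.5 (7.24–17.5) per 10000 hemoglobin UMIs in globin-mixed and 13.0 (10.7–15.8) in globin-dominated barcodes. Others differed in rate between the classes: Bpgm stood at 1.57 (0.325–4.60) against 20.6 (17.5–23.9) and Mkrn1 at 5.77 (2.88–10.3) against 14.6 (12.1–17.5). Scrublet called 2 of 4 globin-mixed barcodes doublets in Control and 3 of 3 in TBI. Among all kept cells it called 38 of 3049 in Control and 109 of 5036 in TBI. It was run with the globin genes in, so its calls are not independent of the hemoglobin that defines the class. How red cell and endothelial RNA came into 1 barcode was not tested.

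Among themselves the 23 barcodes differed in the make-up of their hemoglobin RNA, most of all in Hbb-bt. Its share of the beta globin UMIs ran from 0.527% (0.194–1.14) in a TBI globin-mixed barcode to 23% (21.9–24.1) in the Control barcode with 8458 hemoglobin UMIs. In the 4 smallest globin-dominated Control barcodes Hbb-bt had 6, 3, 4 and 10 UMIs beside 191, 412, 400 and 785 of Hbb-bs. In the 7 largest it had 682, 799, 971, 1135, 1275, 1049 and 1171 beside 4432, 4280, 4046, 4239, 4276, 5156 and 6212. The low and high barcodes do not overlap in their intervals.

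The split of the alpha pair, in contrast, varied less: Hba-a1 made up 55.1% to 61.8% of the alpha UMIs in all 23. It was 57.4% (56.8–57.9) over the globin-dominated and 59.8% (58.5–61.1) over the globin-mixed barcodes. These last intervals do not overlap, so the alpha split was not the same in all barcodes either.

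**Figure D3:**
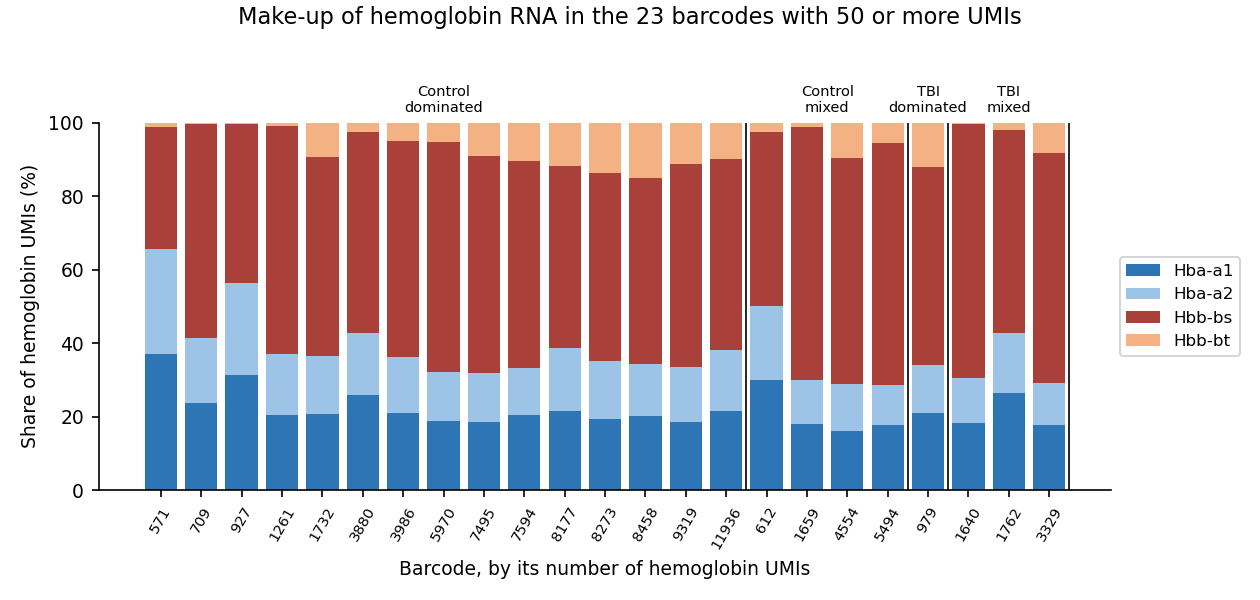
Each bar is 1 of the 23 barcodes with 50 or more hemoglobin UMIs, named by its number of hemoglobin UMIs and grouped by library and class, and its colours give the share of each gene in percent. The relative height of the Hba-a1 and Hba-a2 parts varies little, that of the Hbb-bt part varies most, and alpha exceeds beta in the Control barcodes with 571 and 927 UMIs.

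The level of hemoglobin went with the Hbb-bt share. Over the 16 globin-dominated barcodes Pearson's r between the log10 of hemoglobin UMIs and the Hbb-bt share was 0.676 and Spearman's rho 0.75, and over the 15 of Control they were 0.811 and 0.882. These barcodes share 1 library, and no p is given. The exceptions were the Control barcode with 1732 UMIs, at 14.7% (12.6–16.9), and the TBI barcode with 979 UMIs, at 18.4% (15.5–21.6). In globin-mixed barcodes the share was 0.527% to 4.90% in the 4 under 2000 hemoglobin UMIs and 7.72% to 13.5% in the 3 above.

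Summed over barcodes, Bpgm and Mkrn1 were higher per hemoglobin UMI where the Hbb-bt share was higher, and Alas2 was not set apart. The 11 barcodes with 10% or more Hbb-bt had 372 UMIs of Alas2, Bpgm and Mkrn1, 51.8 (46.6–57.3) per 10000 hemoglobin UMIs. In the 12 below 10% there were 56 UMIs, 19.7 (14.9–25.5) per 10000. Per 10000 hemoglobin UMIs Bpgm stood at 22.6 (19.2–26.3) in the former and 2.81 (1.21–5.54) in the latter, and Mkrn1 at 15.9 (13.1–19.1) and 5.62 (3.21–9.13). Alas2 stood at 13.4 (10.8–16.3) and 11.2 (7.69–15.9), with overlapping intervals. In single barcodes the 3 genes together ran from 0 to 78.3 per 10000 at 10% or more Hbb-bt and from 0 to 38.7 below, so the ranges overlapped. The globin-dominated TBI barcode, at 18.4%, had none of the 3 genes. Of Bpgm the globin-mixed barcodes at 13.5% and 11.6% had 0 and 1 UMIs. The 3 genes and the limit of 10% were chosen after the values had been seen. The barcodes with more Hbb-bt also held more hemoglobin, with a median of 7594 against 1649.5 UMIs. Of them 2 of 11 were globin-mixed, against 5 of the 12 others. Level, class and make-up therefore cannot be told apart in these 23.

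**Figure D4:**
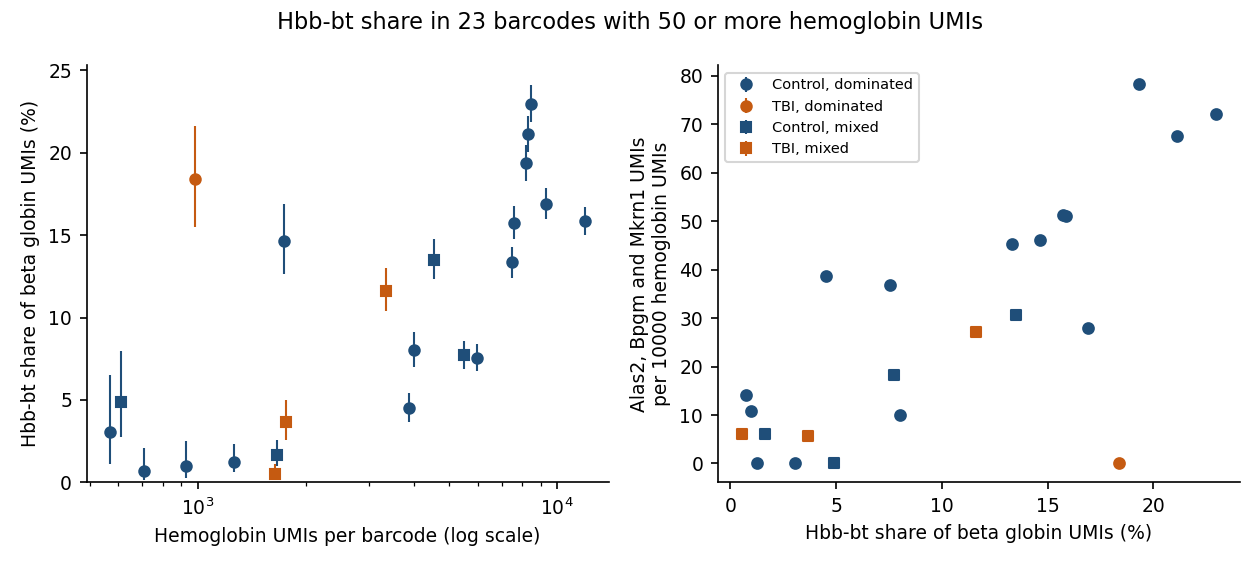
The left panel plots the share of Hbb-bt in the beta globin UMIs (%) against the hemoglobin UMIs of the barcode (log scale), with 95% Clopper-Pearson intervals. The right panel plots the UMIs of Alas2, Bpgm and Mkrn1 per 10000 hemoglobin UMIs against the same share. Blue is Control, orange TBI, circles globin-dominated and squares globin-mixed barcodes. The 7 Control barcodes with 7495 or more hemoglobin UMIs lie at 13.3% or above on the left, and the TBI barcode with 979 UMIs lies at 0 on the right beside a share of 18.4%.

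The ratio of alpha to beta UMIs was 0.560 (0.552–0.568) over the globin-dominated and 0.450 (0.436–0.464) over the globin-mixed barcodes. Its 3 highest values were in barcodes with few UMIs, at 1.90 (1.59–2.27) in the Control barcode with 571, 1.30 (1.14–1.478) in that with 927 and 1.00 (0.851–1.18) in the globin-mixed barcode with 612. From 2000 hemoglobin UMIs on it ranged from 0.399 to 0.746. Its lowest value, 0.399 (0.376–0.423), was that of the globin-mixed Control barcode with 5494. By library it was 0.541 (0.534–0.549) in Control and 0.499 (0.476–0.523) in TBI over all barcodes, which mix the classes in unlike parts. Within globin-dominated barcodes it was 0.560 in Control and 0.513 in TBI, and within globin-mixed ones 0.428 and 0.493, the other direction.

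Low-level hemoglobin RNA was then read in the 3042 Control and 5031 TBI kept cells with fewer than 5 hemoglobin UMIs. In Control 144 of them (4.73%, 4.01–5.55) held 153 UMIs, and in TBI 37 (0.735%, 0.518–1.01) held 39. Of the 144 cells 136 held 1 UMI and 8 held 2 or more. Hbb-bs was read in 84 Control cells, Hba-a2 in 32, Hba-a1 in 23 and Hbb-bt in 10. In TBI the cells numbered 14, 9, 11 and 3. The variance of the count over its mean was 1.08 in Control and 1.10 in TBI. Leaving out cells with 5 or more UMIs holds this value down, so it was not read as random scatter. In kept cells under 50 hemoglobin UMIs it was 3.47 in Control and 4.54 in TBI.

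All named types held such UMIs in Control, and the shares differed between types. The share was 8.75% (5.62–12.8) in NSCs, 6.21% (4.38–8.49) in neuron-like cells, 4.63% (2.42–7.95) in endothelial cells, 4.38% (2.85–6.40) in oligodendrocytes, 3.06% (1.91–4.64) in astrocyte-like cells and 2.66% (1.08–5.41) in mural cells. OPCs had 10.7% (3 of 28), RG-like cells 5% (3 of 60) and microglia 2.63% (1 of 38), each with a wide interval. The interval of NSCs does not overlap those of astrocyte-like and mural cells. The order followed depth in part: NSCs had a median of 15697 UMIs and neuron-like cells 10891, against 4047 in mural cells, which are not known to make hemoglobin.

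Relative to all UMIs the order changed. Neuron-like cells had 6.44 CPM (4.56–8.84), mural cells 6.64 (2.87–13.1), NSCs 5.75 (3.68–8.55), oligodendrocytes 4.39 (2.84–6.48), endothelial cells 9.24 (4.78–16.1) and astrocyte-like cells 9.99 (6.40–14.9). OPCs had 18.2 (4.95–46.55), from 4 UMIs. These are Control values, and the intervals of the named types overlapped. When each cell was thinned to 2000 UMIs, the share with hemoglobin was 2.10% (1.09–3.64) in neuron-like and 0.397% (0.0101–2.19) in mural cells, in 572 and 252 cells, and the intervals overlapped again. A level in neurons above that of mural cells was thus not detectable at this depth. In TBI oligodendrocytes had 0.340 CPM (0.0701–0.993). Astrocyte-like cells at 4.35 (1.75–8.95), mural cells at 3.47 (1.40–7.15) and endothelial cells at 2.80 (1.03–6.09) lay above that interval. The intervals of the other named TBI types overlapped with it.

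**Figure D5:**
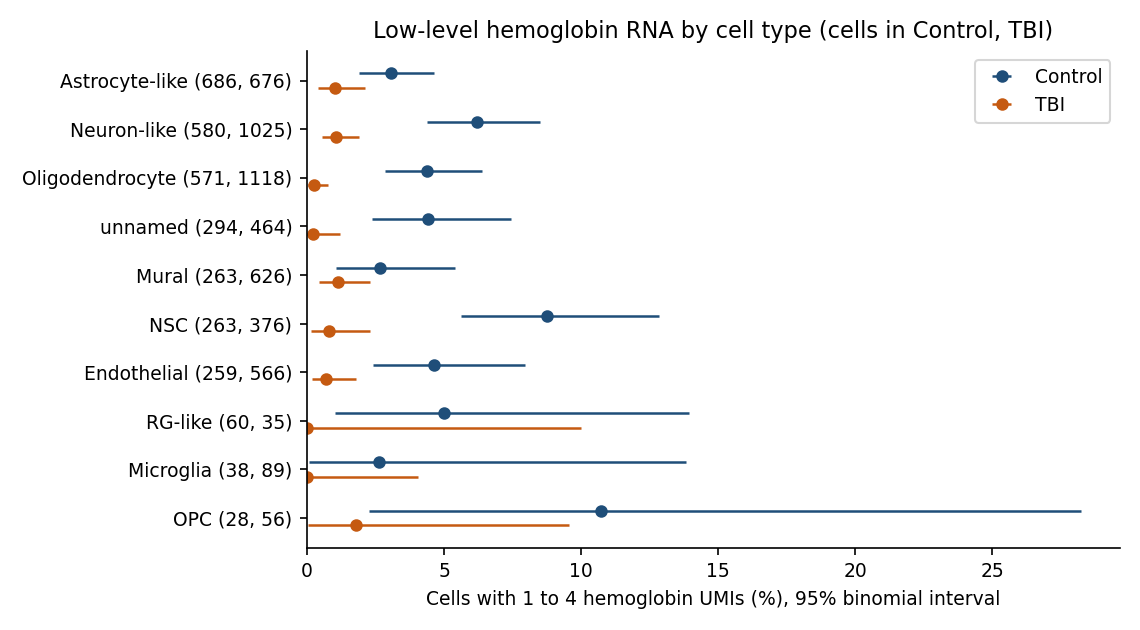
Points give the percentage of cells with 1 to 4 hemoglobin UMIs in each cell type, blue for Control and orange for TBI, with 95% Clopper-Pearson intervals, and the numbers of Control and TBI cells stand beside each name. Cells with 5 or more hemoglobin UMIs are left out. Control points lie between 2.63% and 10.7% and TBI points between 0% and 1.79%.

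Depth, mitochondrial share and Malat1 share of the cell were compared with this low level. In Control the share of cells with hemoglobin went from 1.70% (0.628–3.67) under 2000 UMIs to 3.18% (2.12–4.56), 4.89% (3.46–6.67) and 6.94% (5.48–8.65) in 3 bins of rising depth, the last of 10000 UMIs or more. CPM went the other way, from 14.5 (5.83–29.9) to 10.8 (7.22–15.5), 7.51 (5.37–10.2) and 5.25 (4.15–6.56). The bins mix types of different depth, and within types the share did not always go up. In Control neuron-like cells it was 7.84% (2.18–18.9), 6.58% (3.20–11.8) and 5.96% (3.77–8.89) in the 3 bins from 2000 UMIs, with none of 8 cells below. In Control astrocyte-like cells it was 0.746% (0.0189–4.09), 3.03% (1.52–5.36) and 5.08% (2.35–9.43) in the first 3 bins, and none of the 12 cells in the deepest bin held any. In TBI the share was 0.540%, 0.809%, 0.709% and 0.824% in the same bins, with overlapping intervals. By mitochondrial share the Control values were 5.99%, 5.21%, 3.31% and 2.43% from the lowest to the highest of 4 bins, and after thinning they were 1.86%, 1.28%, 2.08% and 1.63%. By Malat1 share they were 1.75%, 5.39%, 6.13% and 4.31% in the same order.

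The make-up of the low-level RNA was set beside that of the hemoglobin-rich barcodes of the same library. The hemoglobin-rich barcodes differed among themselves in these shares, so the comparison does not name a source. In Control Hbb-bs took 56.9% (48.6–64.8) of the 153 UMIs, Hba-a2 21.6% (15.3–28.9), Hba-a1 15.0% (9.77–21.7) and Hbb-bt 6.54% (3.18–11.7). Globin-dominated barcodes had 54.3%, 15.3%, 20.6% and 9.81%. The alpha to beta ratio was 0.577 (0.408–0.810) against 0.560 (0.552–0.5685). The alpha genes were split otherwise, with Hba-a1 at 41.1% (28.1–55) of 56 UMIs against 57.3% (56.7–57.9). In TBI Hba-a1 had 57.1% (34–78.2) of 21 UMIs. In neuron-like Control cells the counts were 4 of Hba-a1, 11 of Hba-a2, 17 of Hbb-bs and 6 of Hbb-bt, too few to set apart from the rest.

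The low-level RNA was small beside the hemoglobin-rich barcodes of its library. It came to 0.165% of the UMIs of barcodes with 50 or more in Control and to 0.519% in TBI. Ttr, transthyretin of the choroid plexus, was read in the same way for comparison. In Control 2 barcodes held 3957 of its 4009 UMIs and 35 others held 1 to 4. In TBI 1 barcode held 382 of 389 and 6 others held 1 to 4. Its low-level RNA came to 0.935% of the UMIs of barcodes with 50 or more in Control and to 1.83% in TBI. Both shares were higher than those of hemoglobin and rest on 37 and 7 UMIs. Mbp, which many oligodendrocytes make, was read in 27.1% of Control and 24.4% of TBI neuron-like cells. In endothelial, astrocyte-like and mural cells it was read in 9.3%, 9.5% and 12.9% in Control. The same types had 13.1%, 11.2% and 10.4% in TBI.

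The cell types themselves, with all cells counted, differed by which held a hemoglobin-rich barcode. In Control endothelial cells had 46.9 hemoglobin UMIs per cell, of which 12319 of 12331 UMIs came from 4 cells, and 0.0463 per cell without them. All other named Control types lay between 0.0263 (microglia, 1 UMI) and 0.143 (OPC, 4 UMIs). In TBI endothelial cells had 11.8 per cell with 3 globin-mixed barcodes and 0.0440 without them. Of the 25 UMIs behind the latter, 19 were in 2 cells, and TBI endothelial cells under 5 hemoglobin UMIs had 0.0106 per cell, against 0.0463 in Control. Endothelial cells over microglia gave a ratio of 1782 in Control, with an interval of 320 to 70378 since microglia held 1 UMI. In TBI microglia and RG-like cells were at 0, so no ratio was formed.

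Summed over each library, hemoglobin was lower in TBI, both per cell and in CPM. This did not hold in every subset, since endothelial cells under 50 hemoglobin UMIs had 11.6 CPM in TBI and 9.24 in Control. In kept cells there were 30399 UMIs in Control and 6789 in TBI, and the ratio of TBI to Control was 0.135 (0.132–0.139) per cell and 0.174 (0.170–0.179) in CPM. By gene the CPM ratio was 0.182 for Hba-a1, 0.159 for Hba-a2, 0.184 for Hbb-bs and 0.111 for Hbb-bt. All 4 members were thus at least 2-fold lower in TBI, as were 0.958% of 13150 genes compared, while 0.867% were at least 2-fold higher. The members were chosen with these values known, and they were not independent of each other, as they came from the same few barcodes. Over all deposited barcodes the CPM ratio was 0.0655 (0.0640–0.0671), with 15 globin-dominated barcodes in Control and 1 in TBI. All 4 members were again at least 2-fold lower there, beside 0.95% of 13151 genes lower and 0.867% higher.

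The low-level RNA was lower in TBI too. Per cell the ratio was 0.154 (0.105–0.220), and in CPM it was 0.199 (0.136–0.284). The point value was below 1 in each of the 7 named types with UMIs in both libraries, from 0.0613 (0.0118–0.201) per cell in oligodendrocytes to 0.368 (0.114–1.16) in mural cells. The intervals of mural cells and OPCs reached over 1, and those of NSCs, neuron-like cells, endothelial cells, oligodendrocytes and astrocyte-like cells did not. In CPM the interval of astrocyte-like cells reached over 1 as well, at 0.435 (0.158–1.04). In cells under 50 hemoglobin UMIs only Hbb-bs had the UMIs to be counted among genes past a 2-fold ratio. It was lower in TBI at 0.185 (0.113–0.291) in CPM, as were 0.936% of 13146 genes by at least 2-fold, with 0.875% higher. Hemoglobin-rich barcodes differed in number in the same way (0.616%, 0.371–0.960, of Control and 0.0787%, 0.0215–0.201, of TBI barcodes). Condition, pool, dissociation and library cannot be told apart. Whether the low level came from the same source as the few hemoglobin-rich barcodes was not tested.

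Other globins were read as well. The 23 hemoglobin-rich barcodes held so few non-globin UMIs that most UMIs of nearly any gene lie outside them. Of 10 listed genes 9 were detected, with 383 UMIs in Control and 594 in TBI. Cytoglobin, Cygb, had 869 UMIs in 579 barcodes and neuroglobin, Ngb, 54 UMIs in 45, and both were at 0 in the 23 hemoglobin-rich barcodes. Per 10000 non-globin UMIs, a 0 allows up to 9.08 in globin-dominated and 0.953 in globin-mixed barcodes. In cells under 5 hemoglobin UMIs Cygb stood at 0.155 and Ngb at 0.00964. The absence of Cygb and Ngb was thus not detectable as a difference. Their CPM in cells under 5 hemoglobin UMIs was 14.5 and 17.96 for Cygb and 0.993 and 1.04 for Ngb in Control and TBI. Hbq1a, a theta-type gene beside the alpha genes, had 21 UMIs, 4 of them in 3 globin-dominated barcodes. The embryonic gene Hbb-y had 12 UMIs, 10 of them in other endothelial cells, and embryonic Hba-x had 0.

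Genes of heme and iron handling were read as well. Globin-dominated barcodes held 4061 non-globin UMIs and globin-mixed ones 38722, against 52429525 in non-endothelial cells under 5 hemoglobin UMIs. Most UMIs of nearly any gene therefore lie outside the hemoglobin-rich barcodes. All 11 genes of heme synthesis and breakdown were detected, with 10174 UMIs in Control and 13677 in TBI, led by Cpox (6564 in all), Hmox2 (4717) and Urod (2188). Alas1, the form of the first heme enzyme in most tissues, had 1952 UMIs and 0 in the globin-dominated barcodes, where Alas2 had 106. That 0 allows up to 9.08 per 10000 non-globin UMIs, and Alas1 stood at 0.347 in cells under 5 hemoglobin UMIs. A lack of Alas1 was therefore not detectable there. Hmox1, the inducible enzyme that opens heme, stood at 5.14 CPM in Control and 7.67 in TBI cells. Of 9 genes of uptake and iron storage, Fth1 (320885 UMIs), Ftl1 (79520) and Lrp1 (4818) led, and Cd163, the receptor for haptoglobin with hemoglobin, had 4 UMIs in 3 barcodes. Slc40a1, the iron exporter ferroportin, had 1441 of its 1627 UMIs in endothelial cells under 5 hemoglobin UMIs.

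Genes listed for other blood cells had few UMIs. The list held no gene of monocytes or macrophages. Cluster 36, 44 cells named microglia, had Ccl5, Lyz2, Gzma and Cd74 among its leading genes, and whether it held blood cells was not tested. Of 14 genes of platelets, neutrophils, lymphocytes and plasma cells 11 were detected, with 132 UMIs in Control and 202 in TBI, and all 14 were at 0 in the 23 barcodes with 50 or more hemoglobin UMIs. Ighm (141) and Itga2b (82) had the most, followed by Gp9 and Nkg7 with 28 each. Ighm stood at 0.0252 per 10000 non-globin UMIs in cells under 5 hemoglobin UMIs. A 0 allows up to 9.08 in globin-dominated and 0.953 in globin-mixed barcodes, so the absence of these genes there was not detectable. The neutrophil genes S100a8 and S100a9 were at 0, and the platelet genes Ppbp and Pf4 had 2 and 8 UMIs.

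The 5 genes whose level over 9 named types in 2 libraries was most like that of hemoglobin (Pearson's r of log2(CPM + 1) over 18 points, 10133 genes of at least 500 UMIs) were Bsg (0.931), Slc38a5 (0.918), Col4a3bp (0.914), Ushbp1 (0.914) and Paqr5 (0.906). Bsg and Slc38a5 are surface proteins of vessel cells in the brain. Without the barcodes of 50 or more hemoglobin UMIs the 5 genes were others, led by Rnf169 at 0.735, and the hemoglobin-rich cells of named types are the 7 endothelial barcodes.

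In the 1% of kept cells of each library with the most hemoglobin, 31 in Control and 42 with any in TBI, most cells held 1 UMI. In Control 15 cells held more, and the other 16 were taken from 136 cells tied at 1 UMI, those in which this UMI was the largest share of the cell's UMIs, so the list rests on that choice. The genes highest over the other cells of the same types and libraries included Alas2, Ptk2b, Camk2a, Adcy1, Apln, C1ql3, Nrgn, Camk2b and Syt7. Alas2 had 42 UMIs there, 20 in the 2 kept globin-dominated and 22 in the globin-mixed barcodes. Ptk2b, Camk2a, Adcy1, Apln, C1ql3, Nrgn and Camk2b had none in them, so their UMIs came from cells with at most 21 hemoglobin UMIs.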

How the data were processed

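The deposited values are raw UMI counts that the authors made with Cell Ranger 3.0.2 on mm10, per gene and barcode, 1 table per pooled library; all columns were used (0 left out). The members, gene lists and barcode classes were chosen with earlier results of these data known, and the limits of 50 UMIs and 90% after the values had been seen. Cells with at least 200 genes and a log UMI total no further than 3 median absolute deviations from its library's median were kept. They were clustered without globin genes in Seurat 5.3.0 (R 4.3.3; 2000 variable genes, 20 CCA dimensions, 20 components, resolution 3) and named from fixed markers. Scrublet (scanpy 1.11.5), run with the globin genes in, marked doublets, which were kept unless stated, 38 barcodes in Control and 109 in TBI. Median depth was 6928 UMIs per kept Control cell and 5663 per TBI cell. Sums, ratios and intervals were computed in python 3.11.15 with numpy 2.4.6, scipy 1.17.1 and pandas 2.3.3, and the scripts were tested on simulated data. CPM is per 1000000 UMIs without Malat1. The 4 members are described throughout; of the other lists the text names up to 3 genes with the most UMIs, and further genes were chosen after their values were seen. Some genes of these lists are not reported here. A gene entered the 2-fold comparison if it had 100 UMIs or more in total and 10 or more per library. With 1 library per condition no test between conditions was made.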

Additional observations from a re-analysis of the deposited data

How the results depend on the processing

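The ratio of hemoglobin UMIs per cell in TBI over Control, 0.135, was below 1 under each alternative run. It was 0.0509 without the filter, 0.119 at no more than 10% mitochondrial UMIs, 0.00653 with doublets removed, 0.174 in CPM, 0.231 after thinning to 2000 UMIs, 0.251 with named types at equal weight and 0.202 without barcodes of 50 or more hemoglobin UMIs (an alternative chosen after seeing the data). It was 0 without the 1% of cells with the most hemoglobin, which takes all TBI cells that held any. The ratio of the highest over the lowest named type in Control, 1782 for endothelial cells over microglia, was 4.38 (1.62–14.8) without that 1%, then for NSCs over mural cells, and 5.43 (0.537–267.3) without barcodes of 50 or more, then for OPCs over microglia with an interval that includes 1. These are other pairs of types. The other 8 alternatives kept endothelial cells highest and gave 863 to 2302. Alpha over beta, 0.505, was 0.538 without the filter, 0.468 with doublets removed, 0.519 without the 1% and 0.681 without barcodes of 50 or more. The share of hemoglobin UMIs in the top 1% of cells, 99.7%, was 99.9% without the filter, 97.9% with doublets removed, 25.8% without the 1%, 50.9% without barcodes of 50 or more and 100% for the top 5% of cells. Cells of 10000 or more UMIs over cells under 2000 gave 1151, which became 2.18 without the filter, 253.9 with doublets removed and 4.39 without barcodes of 50 or more. It reversed to 0.0027 when depth was counted without hemoglobin UMIs (also chosen after seeing the data), since hemoglobin itself then no longer places a barcode among the deep ones.

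No paired analysis was possible because each condition is 1 pooled library, and for the same reason leaving out a replicate was impossible. The depth ratio gave no value in neuron-like cells, where those under 2000 UMIs held no hemoglobin, nor without the 1% of cells with the most. Depth limits the low-level RNA, which rests on 153 UMIs in Control and 39 in TBI.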

Other observations

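Among the genes highest in the globin-dominated barcodes over cells under 5 hemoglobin UMIs were Isg20, an interferon-induced nuclease, with 29 UMIs in 7 of the 16 barcodes, and Isg15, an interferon-induced ubiquitin-like protein, with 19 UMIs in 4. Per 10000 non-globin UMIs Isg20 stood at 71.4 against 0.0189, and Isg15 at 46.8 against 0.298. Gpx1, a peroxidase of red cells and many other cells, had 92 UMIs in 9 barcodes, 37 of them in the Control barcode with 8177 hemoglobin UMIs. Epb41, a protein of the red cell skeleton, had 27 UMIs in 11 barcodes. Tfrc, the transferrin receptor, which red cell precursors lose as they mature, was at 0 in the globin-dominated barcodes. That 0 allows up to 9.08 per 10000 non-globin UMIs, against 0.74 in cells under 5 hemoglobin UMIs, so a lack of Tfrc was not detectable. In 5 of 7 globin-mixed barcodes Tfrc had 35 UMIs, at 9.04 per 10000 non-globin UMIs over the class, against 5.35 in other endothelial cells. These genes were chosen after their values were seen.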
